A study of Mus musculus with 12 samples.

Results

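Fatty acids are the main fuel of the adult heart. They arrive on lipoproteins and albumin, are taken up by the cardiomyocyte, and are either held as triglyceride in lipid droplets or linked to coenzyme A, moved into the mitochondrion as carnitine esters and shortened by beta-oxidation, whose electrons enter the respiratory chain through the electron transfer flavoprotein. Many of these genes are targets of the peroxisome proliferator-activated receptors, nuclear receptors that bind fatty acids, and a lower fatty acid oxidation is a known feature of the septic heart. The genes described here are a named list of 41 genes of fatty acid uptake, storage and oxidation, whose roles define it, although the list was drawn up with earlier results of these data known. All 41 were among the 12866 annotated mouse genes read in every library, and all 41 passed the filter on low values with 11509 genes in all.

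RNA of whole hearts of wild-type C57BL/6 mice was sequenced after depletion of ribosomal RNA, with 4 hearts in each of 3 groups. The first group, LPS+XJDHT, had received lipopolysaccharide, a bacterial cell wall component used to model sepsis, at 10 mg/kg together with Xijiao Dihuang decoction, a herbal preparation, at 50 mg/kg per day. The second group, LPS, had received the same lipopolysaccharide and saline in place of the decoction, and the Control group had received saline for both, in each case for 3 days. The labels give no age, sex or housing of the mice, and injected lipopolysaccharide lacks the live infection of sepsis.

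Levels are FPKM, fragment counts divided by transcript length and library depth, summed over the annotated transcripts of a gene, and they can therefore be compared between genes per length. A gene is said to have risen or fallen where limma's moderated test on log2(FPKM + 1), fitted to all 12 libraries, gave a Benjamini-Hochberg adjusted p under 0.05 over the 11509 genes, and log2 fold changes are given with their standard errors. Each library held the equivalent of about 73800000 to 77800000 fragments. In 1 library, LPS+XJDHT replicate 2, the summed level of 4 Y-linked genes was 0.205 FPKM, against 20.4 to 61.9 FPKM in the other 11. Calls of members that were lost without that library are named with the results.

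Against Control, 10 of the 41 genes rose in LPS hearts (24.4%) and 7 fell (17.1%), where 26.6% of all genes tested rose and 12% fell (38.6% in either direction). The share that rose was thus near that of all genes. The share that fell was higher than that of all genes, a difference that was not tested. In 10 members every LPS library exceeded every Control library and in 7 every LPS library lay below, where 25.3% and 12.1% of all genes did so. By role, 3 of 8 genes of uptake, 3 of 5 of storage and lipolysis and 2 of 5 thioesterases and uncoupling proteins rose, as did 1 of 9 genes of the beta-oxidation spiral and 1 of 7 of unsaturated fatty acids and electron transfer. The genes that fell were spread over 5 of the 6 roles, with at most 2 in any one of them, and no role was tested against another. The median log2 fold change was 0.02 over the 41 genes, against 0.16 over all genes. The summed level of the 41 genes was 9152.8, 8785.0, 11464.8 and 10092.9 FPKM in LPS hearts, against 9345.9, 9168.2, 9169.3 and 9672.7 FPKM in Control hearts. The groups overlapped in this sum, although single members had moved by up to 9.24-fold. In whole-heart RNA, fewer cells of a type and less RNA per cell cannot be told apart.

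The shift of the middle of the distribution bears on these counts. Dividing each library by its median ratio, which sets the median gene level, gave 8 members that rose and 11 that fell in LPS hearts, and 2145 risen and 2112 fallen genes among all tested. Acadl and Plin5 lost their calls under that scaling, and Acads, Etfb, Etfdh and Hadha then passed the test as lower. None of the 17 members called under the deposited scaling turned round under it.

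**Figure D1:**
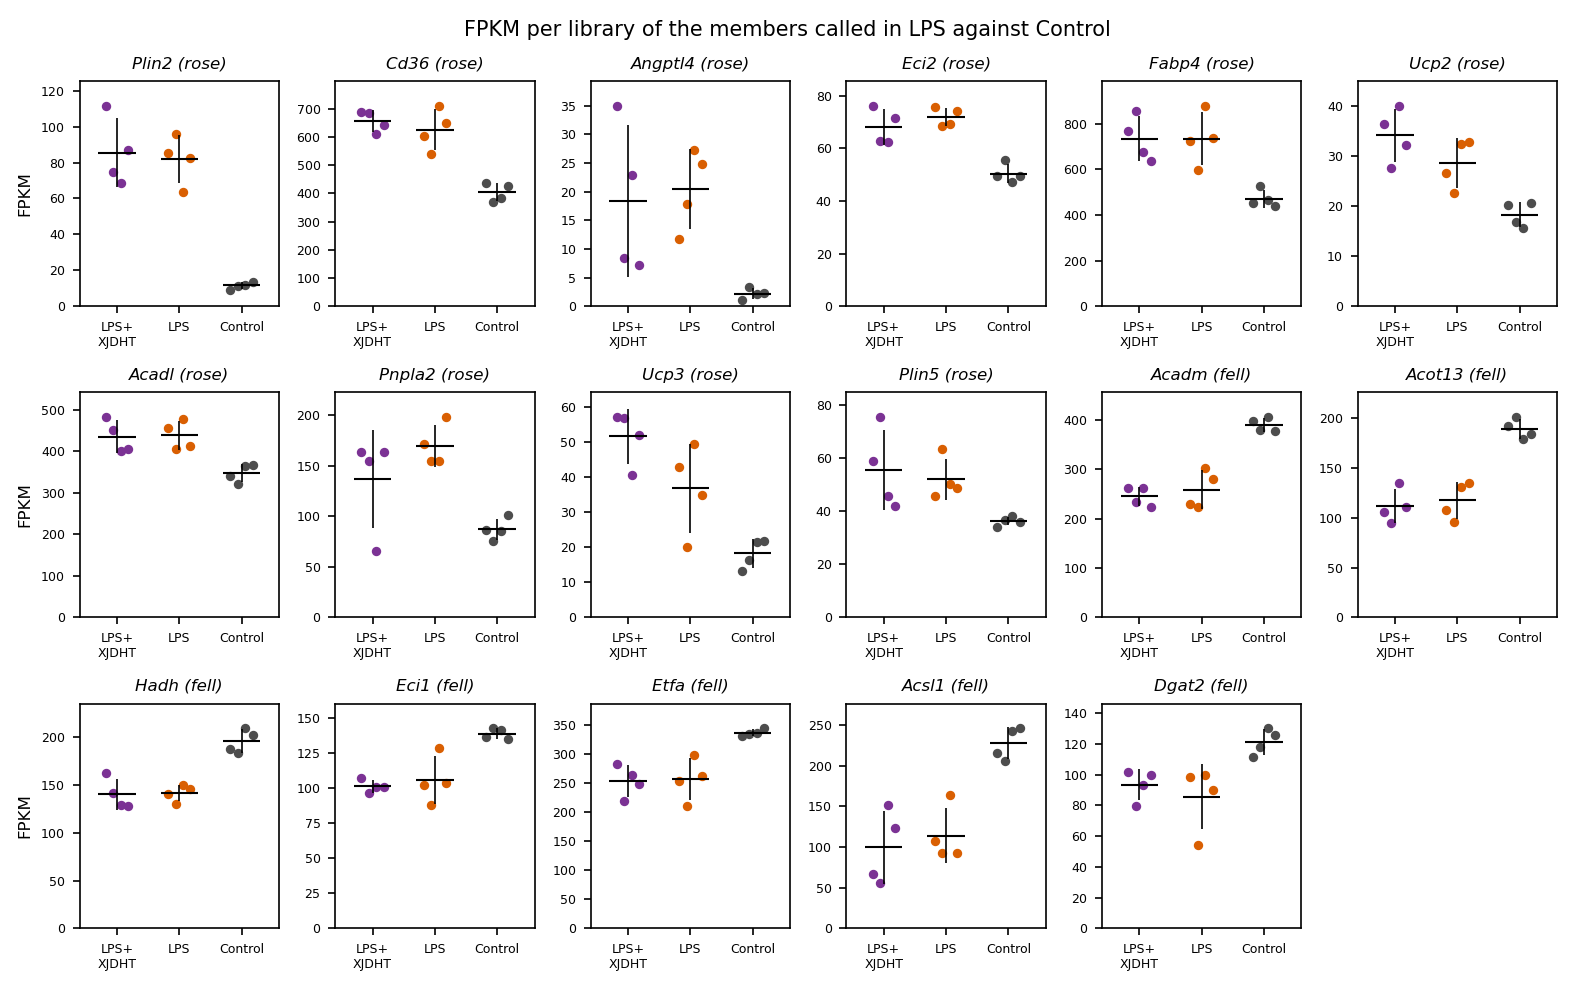
FPKM in each library (points), with the group mean (horizontal line) and SD (vertical line), for the 17 members that rose or fell in LPS against Control hearts, n = 4 per group. LPS and Control points are separate for 16 of them; for Ucp3 the lowest LPS library, at 20.1 FPKM, lies below the highest Control library, at 21.7 FPKM.

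The upstream sequences of 5 called members are shown because each holds a copy of AGGTCA, the core element recognised by peroxisome proliferator-activated receptors with their partner the retinoid X receptor. The promoter table from RefSeq (GRCm38.p6) matched 32 of the 41 members, and the 250 bases before the start of transcription were searched on both strands. The core element occurred in 8 of the 32 members (25.0%), namely Acadm, Acadvl, Cd36, Cpt1a, Echs1, Plin2, Plin5 and Ucp3, and in 15.8% of all 27025 genes of the table. The full direct repeat, 2 copies of AGGTCA with 1 base between, occurred in 0 members and in 0.0407% of genes, and the same element directly preceded by TCA occurred in 0 members and in 0.422% of genes. Of the 8 genes with the core element, Plin2, Plin5, Cd36 and Ucp3 rose in LPS hearts, Acadm fell, and the other 3 did not pass the test. Among all genes tested 26.6% rose and 12% fell, and a link of the element to these changes was not tested. The lines give the gene strand, 5′ to 3′, up to the last base before the start, with core elements in capitals (TGACCT is the element on the opposite strand). A match of letters is a description and not a binding site. Gene spans were taken from the GENCODE coordinates of the transcripts listed for these libraries. By these, Plin2 spans chr4:86656565-86670060, Cd36 chr5:17781690-17888801 and Ucp3 chr7:100472990-100486432. Plin5 spans chr17:56111607-56117298 and Acadm chr3:153922357-153944632. The Plin2, Ucp3 and Acadm windows end close to the start of the span. The Cd36 window lies inside its span, and the Plin5 window lies upstream of its listed transcript. Annotated transcripts that are not listed were not looked up.
Plin2, chr4:86670060-86670309, minus strand: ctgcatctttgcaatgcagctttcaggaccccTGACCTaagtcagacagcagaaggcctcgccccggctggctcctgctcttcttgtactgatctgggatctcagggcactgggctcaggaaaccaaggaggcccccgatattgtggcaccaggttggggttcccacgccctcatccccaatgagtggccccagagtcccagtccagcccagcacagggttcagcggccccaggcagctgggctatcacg
Plin5, chr17:56117549-56117798, minus strand: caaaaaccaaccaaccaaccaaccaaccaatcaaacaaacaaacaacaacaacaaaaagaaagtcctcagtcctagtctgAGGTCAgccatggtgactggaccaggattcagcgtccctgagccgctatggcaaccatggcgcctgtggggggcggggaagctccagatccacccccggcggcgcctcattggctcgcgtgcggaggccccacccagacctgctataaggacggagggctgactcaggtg
Cd36, chr5:17835897-17836146, minus strand: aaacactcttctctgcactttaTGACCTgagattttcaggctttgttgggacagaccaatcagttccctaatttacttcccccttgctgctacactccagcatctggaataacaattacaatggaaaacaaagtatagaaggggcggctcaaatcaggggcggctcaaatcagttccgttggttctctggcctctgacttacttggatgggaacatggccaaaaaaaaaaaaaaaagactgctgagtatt
Ucp3, chr7:100472741-100472990, plus strand: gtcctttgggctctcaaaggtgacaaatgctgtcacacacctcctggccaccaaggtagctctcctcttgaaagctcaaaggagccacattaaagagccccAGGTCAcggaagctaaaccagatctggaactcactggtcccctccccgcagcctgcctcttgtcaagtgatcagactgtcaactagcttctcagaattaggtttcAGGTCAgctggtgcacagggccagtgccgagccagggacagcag
Acadm, chr3:153944644-153944893, minus strand: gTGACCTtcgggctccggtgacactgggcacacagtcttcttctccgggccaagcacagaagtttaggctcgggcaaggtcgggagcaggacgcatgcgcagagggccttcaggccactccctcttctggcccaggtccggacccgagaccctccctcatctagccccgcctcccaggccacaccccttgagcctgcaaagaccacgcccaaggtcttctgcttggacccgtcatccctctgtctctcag

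Of the 8 genes of uptake, 3 rose in LPS hearts and none fell. Cd36 encodes the fatty acid translocase, the main importer of long-chain fatty acids in cardiomyocytes and capillary endothelium. Its level was 604.1, 540.6, 711.2 and 649.5 FPKM in LPS hearts, against 437.0, 369.9, 385.4 and 424.7 FPKM in Control hearts. Every LPS library exceeded every Control library, with a log2 fold change of 0.63 ± 0.09 (SE; limma adjusted p = 0.00026). Fabp4, a fatty acid-binding protein of endothelium, adipocytes and macrophages, stood at 724.7, 594.7, 878.6 and 737.9 FPKM in LPS hearts, against 452.7, 526.4, 465.4 and 438.8 FPKM in Control hearts. It had risen by 0.63 ± 0.12 on the log2 scale (limma adjusted p = 0.002), again with separate groups. Angptl4, which encodes a secreted inhibitor of lipoprotein lipase, had 11.8, 17.8, 27.3 and 24.8 FPKM in LPS hearts, against 1.14, 3.35, 2.12 and 2.24 FPKM in Control hearts. Its log2 fold change of 2.72 ± 0.45 (limma adjusted p = 0.00069) was, with that of Plin2, the largest of the 41.

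Lpl, the lipase that Angptl4 inhibits, averaged 818.2 ± 151.1 FPKM in LPS hearts and 819.6 ± 76.3 FPKM in Control hearts (SD, n = 4 each). The 95% interval of its log2 fold change ran from -0.27 to 0.24. This level is a sum over transcripts of unlike length, whose parts varied between libraries. Fabp3, the fatty acid-binding protein of cardiomyocytes and the most abundant of the 41 genes, averaged 2931.2 ± 467.3 FPKM in LPS hearts and 2541.0 ± 88.2 FPKM in Control hearts, with an adjusted p of 0.18 by limma. Fabp5, another binding protein, averaged 26.8 ± 7.69 FPKM in LPS hearts and 29.3 ± 1.3 FPKM in Control hearts. Slc27a1, a fatty acid transport protein that also forms acyl-CoA, ranged over 5.85 to 31.8 FPKM in LPS hearts and over 6.63 to 29.9 FPKM in Control hearts. The receptor gene Vldlr, which takes up triglyceride-rich lipoproteins, ranged over 2.96 to 18.4 FPKM in LPS hearts and over 3.13 to 28.9 FPKM in Control hearts. For Vldlr 1 library stood far above the rest in each of these groups, and for Slc27a1 1 library did in LPS hearts while the Control libraries were spread over the whole range. The intervals of the log2 fold change were wide, from -1.62 to 0.68 for Slc27a1 and from -1.84 to 1.4 for Vldlr.

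Among the 5 genes of storage and lipolysis, 3 rose in LPS hearts and 1 fell. Plin2 encodes the perilipin that coats lipid droplets in most cell types. It had 85.1, 95.8, 63.7 and 82.5 FPKM in LPS hearts, against 9.35, 11.3, 12 and 13.7 FPKM in Control hearts. The groups lay far apart, at 7.07 times the Control mean and a log2 fold change of 2.72 ± 0.17 (limma adjusted p = 8.7e-07). Pnpla2, which encodes the lipase that takes the first acyl chain off triglyceride, had 171.5, 155.0, 154.7 and 198.8 FPKM in LPS hearts, against 86.2, 75.8, 85.6 and 100.9 FPKM in Control hearts. Its groups did not overlap, and its log2 fold change was 0.96 ± 0.25 (limma adjusted p = 0.011). Part of the Pnpla2 sum came from Pnpla2-202, a protein-coding transcript listed at 0 in all 4 Control libraries and at 12, 14.2, 0 and 88.0 FPKM in LPS libraries.

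Plin5, the perilipin that ties droplets to mitochondria in oxidative tissues, had 45.7, 63.4, 50.1 and 48.7 FPKM in LPS hearts, against 34.2, 36.6, 38.1 and 36.1 FPKM in Control hearts. Every LPS value was above every Control value, with a log2 fold change of 0.5 ± 0.17 (limma adjusted p = 0.032), but the call was lost without LPS replicate 2 and without any one of the Control replicates. The adjusted p of Plin5 reached 0.19 among the settings tried. Dgat2, which adds the last acyl chain of triglyceride, fell, with 98.3, 54.4, 99.7 and 89.9 FPKM in LPS hearts, against 111.3, 117.9, 130.7 and 126.0 FPKM in Control hearts. The log2 fold change of Dgat2 was -0.54 ± 0.17 (limma adjusted p = 0.026), and the call was lost without Control replicate 3 or 4 and when only these 2 groups were fitted, with an adjusted p of up to 0.065. Lipe, the hormone-sensitive lipase, averaged 13.0 ± 5.68 FPKM in LPS hearts and 12.1 ± 1.44 FPKM in Control hearts (SD, n = 4 each), with an interval of the log2 fold change from -0.66 to 0.7.

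Of the 7 genes of activation and the carnitine shuttle, Acsl1 fell in LPS hearts and none rose. Acsl1 is the main long-chain acyl-CoA synthetase of the heart. It had 108.1, 92.2, 163.7 and 92.2 FPKM in LPS hearts, against 216.2, 206.5, 242.4 and 247.1 FPKM in Control hearts. Its level was lower in LPS hearts, with a log2 fold change of -1.03 ± 0.29 (limma adjusted p = 0.015) and no overlap. Cpt1b, the muscle form of the carnitine palmitoyltransferase that commits fatty acids to the mitochondrion, averaged 148.9 ± 23.8 FPKM in LPS hearts and 140.2 ± 22.2 FPKM in Control hearts. Cpt2, the inner-membrane enzyme, averaged 61.6 ± 11.8 FPKM in LPS hearts and 63.8 ± 5.92 FPKM in Control hearts, and neither transferase passed the test. Slc25a20, the carnitine-acylcarnitine carrier, had 98.2, 91.9, 98.7 and 93.3 FPKM in LPS hearts, against 86.3, 79.2, 84.0 and 85.8 FPKM in Control hearts. Its groups did not overlap, yet the adjusted p of 0.061 by limma missed the threshold.

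Cpt1a, the liver form of the transferase, had 20.2, 4.12, 22.0 and 0.6 FPKM in LPS hearts, against 13.0, 5.91, 2.36 and 3.16 FPKM in Control hearts. LPS libraries thus stood both above and below the Control range. Acacb, which makes the malonyl-CoA that inhibits the transferase, ranged over 2.81 to 19.9 FPKM in LPS hearts and over 2.62 to 32.9 FPKM in Control hearts. Mlycd, which breaks malonyl-CoA down, averaged 30.8 ± 7.11 FPKM in LPS hearts and 33.1 ± 1.8 FPKM in Control hearts (SD, n = 4 each). Neither gene passed the test, with intervals of the log2 fold change from -1.52 to 1.83 for Acacb and from -0.44 to 0.19 for Mlycd.

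Of the 9 genes of the beta-oxidation spiral, 1 rose, 2 fell and 6 were not called in LPS hearts. The first step is catalysed by acyl-CoA dehydrogenases of different chain lengths. Acadl, the long-chain enzyme, had 456.3, 405.2, 479.2 and 413.7 FPKM in LPS hearts, against 339.8, 322.7, 364.5 and 368.2 FPKM in Control hearts. It rose, with a log2 fold change of 0.33 ± 0.08 (limma adjusted p = 0.0084; 0.18 after median-ratio scaling) and separate groups. Acadm, the medium-chain enzyme, had 229.8, 223.1, 302.5 and 279.9 FPKM in LPS hearts, against 396.7, 378.6, 406.5 and 377.6 FPKM in Control hearts. It fell, at -0.6 ± 0.1 on the log2 scale (limma adjusted p = 0.00072), and the highest LPS library lay below the lowest Control library. Acadvl, the very-long-chain enzyme, averaged 305.1 ± 23.2 FPKM in LPS hearts and 306.0 ± 13.7 FPKM in Control hearts, with an interval of the log2 fold change from -0.18 to 0.17. Acads, the short-chain enzyme, averaged 39.1 ± 4.56 FPKM in LPS hearts and 44.0 ± 2.65 FPKM in Control hearts (limma adjusted p = 0.16).

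In the later steps, Hadh, the dehydrogenase of medium- and short-chain hydroxyacyl-CoA, had 140.5, 129.7, 149.7 and 146.1 FPKM in LPS hearts, against 187.9, 183.2, 210.0 and 202.3 FPKM in Control hearts. Its groups were separate and it fell, with a log2 fold change of -0.47 ± 0.09 (limma adjusted p = 0.0016). Hadha and Hadhb, the subunits of the trifunctional protein that acts on long chains, averaged 264.2 ± 34.0 and 380.1 ± 69.8 FPKM in LPS hearts, against 305.1 ± 40.7 and 413.9 ± 19.5 FPKM in Control hearts (SD, n = 4 each). Echs1, the short-chain hydratase, averaged 167.3 ± 13.9 FPKM in LPS hearts and 156.9 ± 5.25 FPKM in Control hearts. Acaa2, the thiolase, averaged 387.9 ± 30.7 FPKM in LPS hearts and 366.0 ± 12.8 FPKM in Control hearts. None of these 4 genes passed the test, and the adjusted p by limma was 0.21 for Hadha and at least 0.42 for the others.

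The auxiliary enzymes of unsaturated fatty acids and the electron transfer proteins gave 1 gene that rose and 2 that fell among 7 in LPS hearts. The isomerases Eci1 and Eci2, which move a double bond so that oxidation can go on, changed in opposite directions. Eci2, present in mitochondria and peroxisomes, had 75.8, 68.5, 69.4 and 74.0 FPKM in LPS hearts, against 49.6, 55.5, 47.1 and 49.3 FPKM in Control hearts, a log2 fold change of 0.51 ± 0.09 (limma adjusted p = 0.00079). Eci1, the mitochondrial isomerase, had 102.3, 87.9, 128.5 and 103.2 FPKM in LPS hearts, against 135.9, 142.9, 141.2 and 134.7 FPKM in Control hearts, a log2 fold change of -0.4 ± 0.1 (limma adjusted p = 0.0072). Neither isomerase had overlapping groups.

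Etfa, the alpha subunit of the electron transfer flavoprotein, had 253.9, 210.3, 298.2 and 261.1 FPKM in LPS hearts, against 330.3, 333.6, 336.2 and 345.0 FPKM in Control hearts. It fell, with a log2 fold change of -0.4 ± 0.1 (limma adjusted p = 0.0096) and separate groups. Its partner Etfb averaged 345.6 ± 45.7 FPKM in LPS hearts and 418.4 ± 88.8 FPKM in Control hearts, and did not pass the test (limma adjusted p = 0.21). Etfdh, which passes the electrons to ubiquinone, averaged 198.9 ± 25.5 FPKM in LPS hearts and 218.4 ± 8.99 FPKM in Control hearts. Decr1, the dienoyl-CoA reductase, averaged 119.2 ± 17.0 FPKM in LPS hearts and 106.0 ± 2.76 FPKM in Control hearts. Ech1, the dienoyl-CoA isomerase, varied widely within groups, with 57.7, 205.9, 112.0 and 102.6 FPKM in LPS hearts, against 184.6, 125.9, 107.5 and 216.1 FPKM in Control hearts. The values of Ech1 overlapped widely (limma adjusted p = 0.26).

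Of the 5 thioesterases and uncoupling proteins, 2 rose and 1 fell in LPS hearts. Thioesterases release free fatty acids from acyl-CoA, and uncoupling proteins lie in the inner mitochondrial membrane. Acot13 fell, with 107.5, 96.1, 131.3 and 135.3 FPKM in LPS hearts, against 192.3, 201.6, 178.7 and 184.6 FPKM in Control hearts (log2 fold change -0.7 ± 0.13, limma adjusted p = 0.0013). Its groups were separate. Ucp2, which is common in immune cells, had 26.6, 22.6, 32.5 and 32.8 FPKM in LPS hearts, against 20.2, 16.9, 15.6 and 20.6 FPKM in Control hearts (log2 fold change 0.61 ± 0.15, limma adjusted p = 0.0075). Ucp3, the form of skeletal muscle and heart, had 43.0, 20.1, 49.7 and 34.9 FPKM in LPS hearts, against 13.3, 16.5, 21.5 and 21.7 FPKM in Control hearts (log2 fold change 0.93 ± 0.25, limma adjusted p = 0.012). All Ucp2 values in LPS hearts exceeded those in Control hearts, whereas LPS replicate 2 placed Ucp3 within the Control range.

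The cytosolic thioesterase Acot1 averaged 7.34 ± 2.86 FPKM in LPS hearts and 4.95 ± 1.44 FPKM in Control hearts, and its mitochondrial paralogue Acot2 averaged 31.3 ± 7.49 FPKM in LPS hearts and 24.9 ± 4.08 FPKM in Control hearts (SD, n = 4 each). Neither passed the test. These 2 genes are close in sequence, so the split of reads between them is uncertain.

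In LPS+XJDHT hearts, 10 of the 41 genes rose against Control and 9 fell, where 28.5% of all genes tested rose and 10.7% fell (39.2% in either direction). The members' shares were 24.4% and 22.0%, so the share that fell was higher than that of all genes, which was not tested. Without overlap, 11 members were higher and 10 lower, where 30.2% and 11.9% of all genes were, and the members' median log2 fold change was 0.04, against 0.19 over all genes. After median-ratio scaling, 6 of the 41 members rose and 16 fell, and 1967 of all 11509 genes rose and 2044 fell. The fallen share was thus higher among members under that scaling too. Acadl, Acot1, Eci2 and Plin5 lost their calls under that scaling. Acaa2, Cpt2, Dgat2, Echs1, Etfdh, Hadha and Hadhb then passed the test as lower. Under the deposited scaling but without LPS+XJDHT replicate 2, Acot1 and Ech1 lost their calls. Because this comparison uses the same Control hearts as the one above, the values of both are given side by side and their likeness is not a result. The log2 fold change of Plin2 was 2.77 ± 0.17 in LPS+XJDHT and 2.72 ± 0.17 in LPS hearts, that of Angptl4 2.36 ± 0.45 and 2.72 ± 0.45, and that of Ucp3 1.47 ± 0.25 and 0.93 ± 0.25. For the genes that fell, it was -1.3 ± 0.29 and -1.03 ± 0.29 for Acsl1, -0.67 ± 0.1 and -0.6 ± 0.1 for Acadm, and -0.77 ± 0.13 and -0.7 ± 0.13 for Acot13, in the same order of groups.

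Dgat2 and Pnpla2 were called in LPS against Control and not in LPS+XJDHT against Control, where limma's adjusted p was 0.1 for Dgat2 and 0.099 for Pnpla2. Dgat2 passed there as lower when only the compared groups were fitted and after median-ratio scaling. It also passed there with sample quality weights and without LPS replicate 2. Pnpla2 had 163.8, 154.9, 65.2 and 164.1 FPKM in LPS+XJDHT hearts, and replicate 3 alone stood below the Control range of 75.8 to 100.9 FPKM. Without that library Pnpla2 passed the test against Control. Acads, Ech1, Etfb and Acot1 were called in LPS+XJDHT against Control and not in LPS against Control. Tested directly, none of these 6 genes passed the threshold in LPS+XJDHT against LPS hearts (limma adjusted p at least 0.99). Acads had 35.5, 38.0, 34.3 and 34.1 FPKM in LPS+XJDHT hearts, against 42.7, 41.0, 45.5 and 46.9 FPKM in Control hearts (log2 fold change -0.3 ± 0.09, limma adjusted p = 0.021). Its groups did not overlap, but the call was lost without Control replicate 3 or 4 and without LPS+XJDHT replicate 3 or 4. Acot1 had 9.56, 10.2, 9.55 and 5.8 FPKM in LPS+XJDHT hearts, against 5.66, 3.58, 3.94 and 6.63 FPKM in Control hearts, with an adjusted p of 0.0497 by limma that rose to as much as 0.14 under other settings, the fit without LPS+XJDHT replicate 2 among those that lost the call.

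For Ech1 and Etfb the division of reads between transcripts varied between libraries. Ech1 had 72.2, 70.9, 74.2 and 84.4 FPKM in LPS+XJDHT hearts, all below the Control values (log2 fold change -1.01 ± 0.32, limma adjusted p = 0.028). Summed over protein-coding transcripts alone, the log2 fold change of Ech1 was 0.04 with an adjusted p of 0.98, and its single coding transcript, Ech1-201, ranged over 19.0 to 40.3 FPKM in LPS+XJDHT hearts and over 1.87 to 155.6 FPKM in Control hearts. The call was also lost without LPS+XJDHT replicate 1, 2 or 3 or Control replicate 1 or 4. Etfb had 255.0, 316.3, 294.6 and 318.8 FPKM in LPS+XJDHT hearts, against 424.5, 449.0, 295.1 and 505.1 FPKM in Control hearts (log2 fold change -0.48 ± 0.15, limma adjusted p = 0.029). LPS+XJDHT replicate 1 and Control replicate 3 were the low libraries of their groups, and in both the short transcript Etfb-205 stood near 0, at 0.0246 and 0.0466 FPKM, against 185.5 to 362.5 FPKM in the other 10 libraries. The Etfb call was lost without LPS+XJDHT replicate 1 or 3 or Control replicate 1, 2 or 4. In LPS against Control hearts, Etfb passed the test as lower without Control replicate 3 and after median-ratio scaling. It also did so there in a limma-voom fit of the fragments recovered from FPKM.

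**Figure D2:**
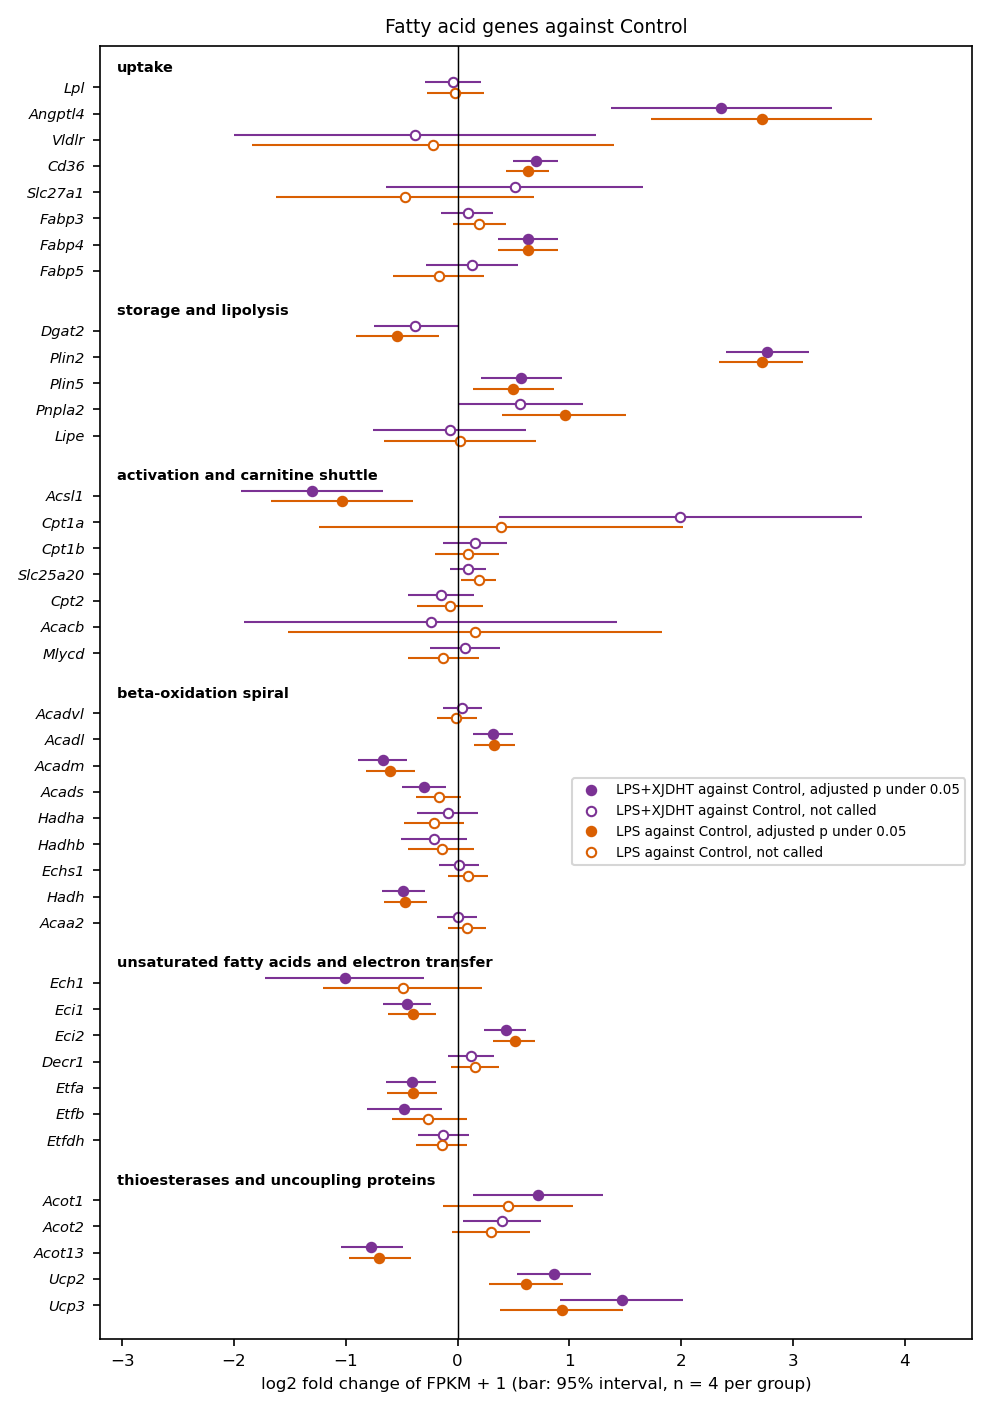
Log2 fold change of FPKM + 1 against Control (points) with its 95% interval (bars) for the 41 genes by role, for LPS+XJDHT (purple) and LPS hearts (orange), n = 4 per group; filled points have an adjusted p under 0.05. Plin2 and Angptl4 lie above 2, Acsl1 lies at -1.3 in LPS+XJDHT and -1.03 in LPS hearts, and Vldlr, Slc27a1, Cpt1a and Acacb have the widest bars.

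Transcript assignment varied between libraries for further members. The 41 genes had 150 listed transcripts, 81 of them protein-coding, 47 with a retained intron, 16 processed and 6 subject to nonsense-mediated decay, and 134 were listed for all 3 groups. Most of the FPKM of Lpl lay on 1 of 2 transcripts in each library, and these differ in length (4115 bases for Lpl-201 and 1900 for Lpl-203). The decay transcript Lpl-203 had 692.4, 701.6, 39.2 and 668.1 FPKM in LPS+XJDHT hearts, 657.8, 608.4, 6.49 and 719.9 FPKM in LPS hearts, and 0.0209, 2.45, 721.6 and 49.2 FPKM in Control hearts. The coding transcript Lpl-201 had the complement, with 820.8 FPKM in LPS+XJDHT replicate 3 and 1021.5 FPKM in LPS replicate 3, against 95.7 FPKM in Control replicate 3 and 735.2 to 871.4 FPKM in the other Control libraries. In LPS replicates 1, 2 and 4 Lpl-201 had 87.7, 71.7 and 87.0 FPKM. The gene sum stayed within 682.3 to 1030.4 FPKM in all 12 libraries, and the sum is the level reported here. FPKM divides by length, so an even sum over transcripts of unlike length does not show even fragments or an unchanged coding transcript. Across the settings tried, a fit of recovered fragments among them, the limma adjusted p of Lpl in LPS against Control was at least 0.16.

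Acsl1 showed a related split. Acsl1-203, its main transcript in Control hearts at 183.0 to 222.3 FPKM, had 0.0158, 0.0, 134.6 and 107.1 FPKM in LPS+XJDHT hearts and 95.4, 79.0, 145.7 and 66.4 FPKM in LPS hearts. In LPS+XJDHT replicates 1 and 2, Acsl1-201 had 65.8 and 54.3 FPKM and a further transcript, Acsl1-202, listed for LPS+XJDHT libraries alone and left out of the sum, had 16.2 and 14.3 FPKM. With every listed transcript in the sum Acsl1 still passed the test in both comparisons with Control. The high Vldlr values of LPS+XJDHT replicate 3, LPS replicate 3 and Control replicate 2 lay in Vldlr-207, at 11.8, 15.2 and 27.0 FPKM, against 0.888 to 1.54 FPKM in the other 9 libraries. The coding transcript Slc27a1-207 had 21.3, 16.6, 22.4 and 2.55 FPKM in LPS+XJDHT hearts, 2.75, 2.97, 1.55 and 24.4 FPKM in LPS hearts, and 2.83, 3.21, 21.3 and 4.29 FPKM in Control hearts. It made up most of the Slc27a1 sum in the libraries where it stood at 16.6 FPKM or above. In some other libraries transcripts with a retained intron were the larger part, with Slc27a1-202 at 6.78 FPKM in LPS+XJDHT replicate 4 and 5.57 FPKM in Control replicate 2, and Slc27a1-205 at 8.69 FPKM in Control replicate 4.

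**Figure D3:**
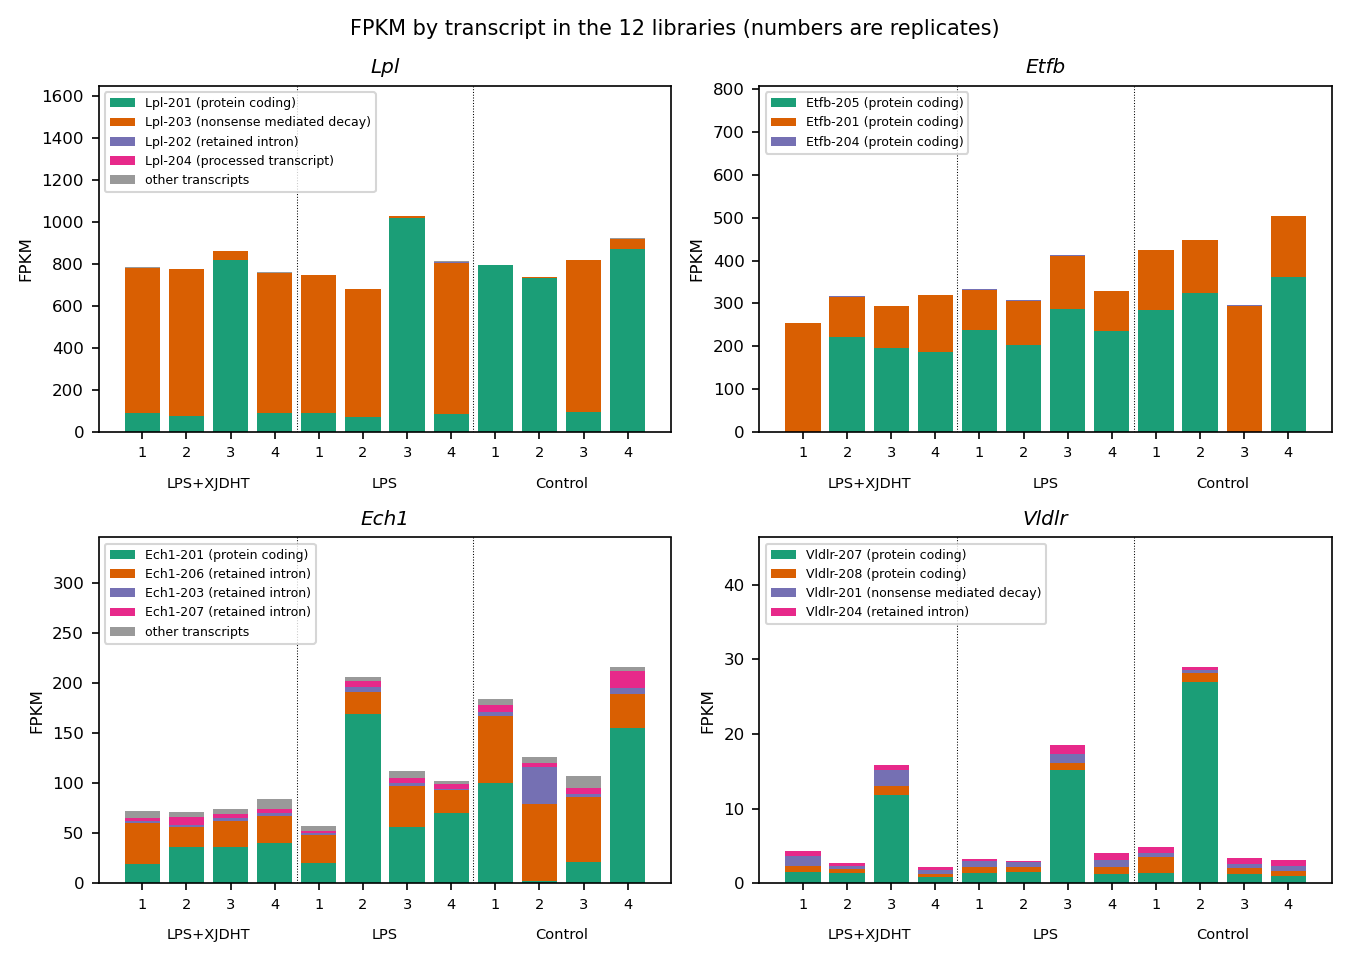
Stacked FPKM of the transcripts of Lpl, Etfb, Ech1 and Vldlr in each of the 12 libraries, grouped as LPS+XJDHT, LPS and Control, with replicate numbers on the horizontal axis. Lpl switches between the coding Lpl-201 and the decay transcript Lpl-203 while the bar height stays within 682.3 to 1030.4 FPKM; Etfb-205 is near 0 in 2 libraries; and Vldlr-207 is high in 1 library of each group.

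With the decoction, none of the 41 genes rose or fell against LPS alone. The files of LPS+XJDHT hearts also list a partly different set of transcripts, whose effect cannot be told apart from that of the decoction. Over all 11509 genes 0 rose (0%) and 13 fell (0.113%). By limma, 0 of the 41 genes had an unadjusted p under 0.05 and the smallest adjusted p was 0.99. A limma-voom fit of the fragments recovered from FPKM also called 0 members, with 2 at an unadjusted p under 0.05. In no member did the LPS+XJDHT and LPS libraries fail to overlap, where 1.95% of all genes were higher and 0.860% lower without overlap. The median log2 fold change was -0.02 over the 41 genes and 0.03 over all genes.

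The intervals say how large a difference could have gone unseen. For 15 members the 95% interval of the log2 fold change between LPS+XJDHT and LPS lay within 0.3 in either direction, that is between 0.81-fold and 1.23-fold, and for 34 members it lay within 1, that is between 0.5-fold and 2.0-fold. The exceptions at this wider limit were Acacb, Angptl4, Cpt1a, Ech1, Slc27a1, Ucp3 and Vldlr. Plin2 had 111.7, 74.9, 68.5 and 86.9 FPKM in LPS+XJDHT hearts, against 63.7 to 95.8 FPKM in LPS hearts, with an interval from -0.32 to 0.42. For Cd36, 688.1, 686.7, 608.8 and 642.4 FPKM in LPS+XJDHT hearts stood against 540.6 to 711.2 FPKM in LPS hearts, with an interval from -0.12 to 0.27. Acadm had 261.6, 233.5, 261.9 and 223.6 FPKM in LPS+XJDHT hearts, against 223.1 to 302.5 FPKM in LPS hearts, with an interval from -0.29 to 0.15. These differences are small beside those from Control.

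The other members called in LPS against Control likewise had LPS+XJDHT values that overlapped the LPS values given above. Fabp4 had 769.5, 854.2, 673.8 and 635.1 FPKM in LPS+XJDHT hearts. Plin5 had 58.8, 75.7, 45.9 and 42.1 FPKM, and Dgat2 had 101.6, 79.8, 93.2 and 99.9 FPKM in LPS+XJDHT hearts. The Fabp4 and Plin5 libraries all stood above the Control range and those of Dgat2 all below it. Acadl had 484.2, 451.4, 401.1 and 406.9 FPKM, and Hadh had 162.6, 141.2, 128.5 and 128.0 FPKM in LPS+XJDHT hearts. For the isomerases, Eci2 had 76.2, 62.7, 62.2 and 71.3 FPKM and Eci1 had 107.2, 96.1, 100.3 and 100.5 FPKM in LPS+XJDHT hearts. Acadl and Eci2 lay above all Control libraries, Hadh and Eci1 below them. Etfa had 282.6, 219.4, 263.6 and 247.5 FPKM, Acot13 had 106.1, 94.9, 135.3 and 110.7 FPKM, and Ucp2 had 36.5, 27.7, 40.1 and 32.3 FPKM in LPS+XJDHT hearts. Etfa and Acot13 were below the Control range in every LPS+XJDHT library, and Ucp2 was above it.

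For other genes the intervals admit larger differences. Cpt1a had 23.5, 21.0, 24.8 and 23.6 FPKM in LPS+XJDHT hearts, against 20.2, 4.12, 22.0 and 0.6 FPKM in LPS hearts. The LPS+XJDHT libraries were even and high, 2 LPS libraries stood close to them and 2 far below, and the interval ran from -0.02 to 3.23. Against Control, Cpt1a missed the threshold in LPS+XJDHT hearts with a log2 fold change of 1.99 ± 0.74 and an adjusted p of 0.052 by limma, and passed it with a limit of 5 FPKM, with only the compared groups in the fit and with sample quality weights. Ucp3 had 57.4, 56.9, 40.6 and 52.2 FPKM in LPS+XJDHT hearts, against 20.1 to 49.7 FPKM in LPS hearts, with an interval from -0.01 to 1.09. Acsl1 had 67.3, 55.9, 151.3 and 123.5 FPKM in LPS+XJDHT hearts, against 92.2 to 163.7 FPKM in LPS hearts, with an interval from -0.91 to 0.36. Angptl4 ranged widely within the decoction group, at 35.0, 8.39, 22.9 and 7.13 FPKM in LPS+XJDHT hearts, against 11.8 to 27.3 FPKM in LPS hearts, with an interval from -1.34 to 0.63.

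**Figure D4:**
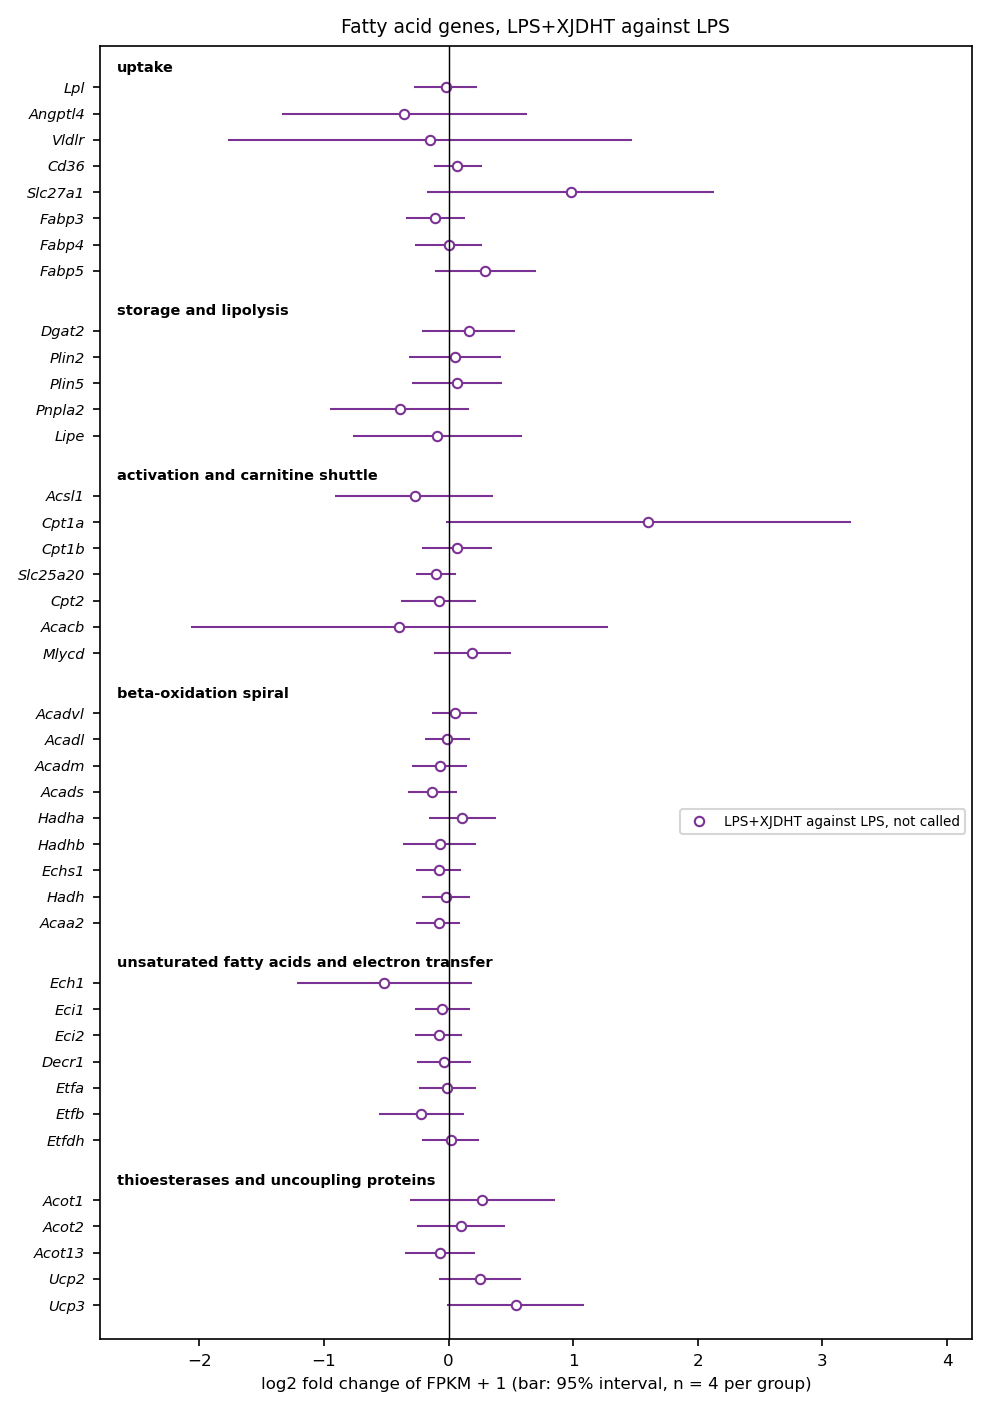
Log2 fold change of FPKM + 1 in LPS+XJDHT against LPS hearts (open points, none called) with its 95% interval (bars) for the 41 genes by role, n = 4 per group. For 25 of the 41 the bars lie within 0.5 of 0; those of Vldlr, Acacb, Cpt1a, Slc27a1 and Angptl4 are the widest.

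Other genes of the same pathways were read from 6 lists of 112 genes in all, of which 92 were tested. In LPS hearts 16 of the 92 rose (17.4%) and 21 fell (22.8%) against Control, where 26.6% and 12% of all genes tested did, and their median log2 fold change was -0.04, against 0.16 over all genes. In LPS+XJDHT hearts 21 rose (22.8%) and 19 fell (20.7%) against Control, where 28.5% and 10.7% of all genes did, and against LPS none of the 92 was called by limma. The counts by list are descriptions, and no list was tested against another or against all genes. Of 13 genes of synthesis and desaturation 6 rose and none fell in LPS hearts, with a median of 0.39, while of 15 regulators none rose and 6 fell, with a median of -0.55. Among 18 genes of side steps of mitochondrial oxidation and ketone use, 2 rose and 8 fell, with a median of -0.31.

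In synthesis and desaturation, Fads3, a member of the fatty acid desaturase family, averaged 37.8 ± 7.49 FPKM in LPS hearts and 13.2 ± 1.49 FPKM in Control hearts (SD, n = 4 each), a log2 fold change of 1.43 ± 0.15. Acly, which makes cytosolic acetyl-CoA from citrate, averaged 16.5 ± 2.32 FPKM in LPS hearts and 9.79 ± 0.336 FPKM in Control hearts. Scd1, the stearoyl-CoA desaturase, averaged 19.6 ± 3.53 FPKM in LPS hearts and 8.34 ± 2.78 FPKM in Control hearts, and the elongase gene Elovl1 averaged 17.5 ± 0.595 FPKM in LPS hearts and 8.87 ± 2.44 FPKM in Control hearts. All 4 had separate groups, with limma adjusted p between 3.6e-05 and 0.0055.

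Among the regulators, Esrra, the estrogen-related receptor that drives genes of oxidative metabolism, averaged 22.7 ± 3.65 FPKM in LPS hearts and 54.0 ± 3.35 FPKM in Control hearts (log2 fold change -1.23 ± 0.13, limma adjusted p = 4e-05). Rxrg, a retinoid X receptor, averaged 10.9 ± 5.79 FPKM in LPS hearts and 28.0 ± 4.49 FPKM in Control hearts (-1.38 ± 0.26, limma adjusted p = 0.0015). Ppard and Esrrb fell as well, with log2 fold changes of -0.71 ± 0.21 and -0.93 ± 0.31. Esrrb and Ppard had overlapping groups, and their means were at most 5.12 FPKM. In LPS+XJDHT hearts Esrra averaged 28.0 ± 4.58 FPKM and Rxrg 13.0 ± 1.85 FPKM.

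In the side steps of mitochondrial oxidation, Oxct1, the enzyme that activates ketone bodies, averaged 68.9 ± 9.49 FPKM in LPS hearts and 173.5 ± 6.39 FPKM in Control hearts (log2 fold change -1.33 ± 0.15, limma adjusted p = 4.3e-05). Bdh1, which oxidises beta-hydroxybutyrate, averaged 12.1 ± 3.63 FPKM in LPS hearts and 34.2 ± 2.95 FPKM in Control hearts (-1.47 ± 0.2, limma adjusted p = 0.00016). Mcee and Pcca, of propionyl-CoA breakdown, fell with log2 fold changes of -0.76 ± 0.13 and -0.55 ± 0.11. The thioesterase Acot9 went the other way, with 34.1 ± 4.09 FPKM in LPS hearts and 10.8 ± 0.461 FPKM in Control hearts (1.56 ± 0.1, limma adjusted p = 1.1e-06), and Hsd17b10, a mitochondrial dehydrogenase, rose by 0.39 ± 0.14.

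In the other 3 lists both directions occurred. Of 13 further genes of uptake, activation and carnitine handling 3 rose, namely the acyl-CoA synthetase Acsl5 (1.02 ± 0.12) and the acyl-CoA-binding Dbi (0.7 ± 0.11) and Acbd5 (0.4 ± 0.12). In that list the carnitine acetyltransferase Crat (-0.33 ± 0.09) and the carnitine transporter Slc22a5 (-1.08 ± 0.35) fell in LPS hearts. Of 18 further genes of lipid storage Hilpda, which encodes an inhibitor of the Pnpla2 lipase, rose (1.52 ± 0.29), as did the droplet protein Cidea (0.43 ± 0.14). The triglyceride-binding Fitm1 (-0.81 ± 0.1) and Fitm2 (-0.66 ± 0.2) and the acyltransferase Agpat1 (-0.63 ± 0.12) fell. Among the genes of peroxisomal oxidation the oxidase gene Acox3 (0.7 ± 0.23) and the transporter gene Abcd3 (1.07 ± 0.22) rose, while Amacr (-0.71 ± 0.15) and Decr2 (-0.69 ± 0.18) fell. All of these are log2 fold changes in LPS against Control hearts with a limma adjusted p under 0.05.

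Some markers of the cells of a whole heart differed between these groups. The summed level of 11 cardiomyocyte markers was 6920.2 to 9368.7 FPKM in LPS+XJDHT hearts, 8296.8 to 9845.4 FPKM in LPS hearts and 14007.8 to 15287.2 FPKM in Control hearts. Of the 10 tested, 5 fell in LPS hearts. Most of the sum in Control hearts came from Myh6, Myl2 and Myl3. Tnnt2, Myoz2, Ryr2, Pln and Actn2 overlapped between LPS and Control, with Actn2 at 356.5 to 464.5 FPKM in LPS hearts and 345.0 to 466.2 FPKM in Control hearts. The sum of 7 neutrophil markers was 75.6 to 152.4 FPKM in LPS+XJDHT hearts, 79.1 to 117.4 FPKM in LPS hearts and 1.04 to 2.73 FPKM in Control hearts, and all 5 tested rose in LPS hearts. Of 9 macrophage and monocyte markers 5 rose and 0 fell in LPS hearts, and 4 rose and 2 fell in LPS+XJDHT hearts, both against Control. Their sums overlapped between groups. The 10 endothelial markers summed to 249.1 to 295.8 FPKM in LPS+XJDHT hearts, 214.7 to 316.3 FPKM in LPS hearts and 205.4 to 245.8 FPKM in Control hearts, and 1 rose in LPS hearts. Of the white adipocyte markers, Adipoq, Lep, Retn, Plin1, Cidec and Adrb3 were not among the genes read in every library. The 3 listed ones, Cfd, Car3 and Pck1, summed to 3.82 to 7.23 FPKM in LPS+XJDHT hearts, 2.1 to 6.98 FPKM in LPS hearts and 3.82 to 17.6 FPKM in Control hearts. Of these, 1 of the 2 tested fell in LPS hearts. The 4 listed brown adipocyte markers summed to 303.8 to 344.9 FPKM in LPS+XJDHT hearts, 316.6 to 386.9 FPKM in LPS hearts and 476.9 to 591.8 FPKM in Control hearts, nearly all of it Cox8b, which heart muscle also expresses. The 4 listed markers of small intestine summed to 0.257 to 1.1 FPKM in LPS+XJDHT hearts, 8.93 to 13.9 FPKM in LPS hearts and 0.539 to 1.55 FPKM in Control hearts, and the 3 tested rose in LPS hearts and fell in LPS+XJDHT against LPS. The share of library signal from mitochondrially encoded genes was 31.4 ± 1.55% in LPS+XJDHT hearts, 31.5 ± 2.01% in LPS hearts and 35.6 ± 1.89% in Control hearts. The part of these shifts in the values above was not tested, except that removing mitochondrial and haemoglobin genes and rescaling changed no call of a member in LPS against Control hearts.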

How the data were processed

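The deposited files give 1 FPKM value per transcript and library; no source used here names the aligner or quantifier of the authors, and genome mm10 and limma are named in the submitters' processing notes. The unit was read from the values: within a tolerance of 0.1, 98.3 to 98.6% of FPKM values times length were whole multiples of 1 step per library. Ribosomal RNA was removed, per the labels' protocols, and no strand setting is given, so reads of overlapping genes cannot be told apart. The files of LPS+XJDHT list 35802 transcripts, those of LPS and Control 36293, and 33137 are in both. The list thus changes together with the decoction, and their effects cannot be told apart in comparisons with LPS+XJDHT hearts. Transcripts the authors assembled without annotation (6.4 to 8.0% of FPKM) were not used. Values of 24723 annotated transcripts were summed by gene with GENCODE M21 (GRCm38). Genes reaching 1 FPKM in 4 or more libraries were tested with limma 3.58.1 in R 4.3.3 on log2(FPKM + 1), trend on, 1 mean per group, two-sided; fold changes on this scale understate those of low genes. The script was tested on simulated data. Promoters are from RefSeq; figures were drawn with matplotlib 3.10.9.

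The members and lists were chosen with earlier results of these data known. Values in every library are given for members called in LPS against Control; from the other lists, up to 4 genes in each direction by adjusted p were named, except 1 result that is not reported here. Nothing in the labels says more of the replicates than that they are separate mice, so p-values measure the spread between these hearts. Alternatives were 11 other settings and leaving out each of the 12 libraries.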

Additional observations from a re-analysis of the deposited data

Results flagged for a closer look

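In each of the 3 groups of 4 libraries, the 41 genes were examined for 1 library far from the other 3 (Dixon's test at its 95% critical value), which gave 6 cases in 123 groups, where chance flags about 1 in 20. Vldlr accounted for 3 of them, with 15.9 FPKM in LPS+XJDHT replicate 3 against 2.2 to 4.35 FPKM in the rest of that group, 18.4 FPKM in LPS replicate 3 against 2.96 to 4.1 FPKM, and 28.9 FPKM in Control replicate 2 against 3.13 to 4.82 FPKM. Slc27a1 had 31.8 FPKM in LPS replicate 4, against 5.85 to 10.3 FPKM in the other LPS libraries. Pnpla2 had 65.2 FPKM in LPS+XJDHT replicate 3, against 154.9 to 164.1 FPKM in the other LPS+XJDHT libraries. Acot1 had 5.8 FPKM in LPS+XJDHT replicate 4, against 9.55 to 10.2 FPKM in the other LPS+XJDHT libraries.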

How the results depend on the processing

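Median-ratio scaling changed the most counts. In LPS against Control 2112 of 11509 genes, 11 of 41 members and 33 of 92 other pathway genes fell. The members' median there was -0.17. In LPS+XJDHT against Control 1967 genes rose and 2044 fell, and 6 members rose and 16 fell. In that comparison 11 other pathway genes rose, and the members' median was -0.2. Under that scaling Echs1 turned to -0.24 (adjusted p 0.022) in LPS+XJDHT against Control, and with protein-coding transcripts only Ech1 turned to 0.04 (adjusted p 0.98). In LPS+XJDHT against LPS, genes over the whole table numbered 2 risen and 41 fallen with no filter, 1 fallen with a limit of 5 FPKM, 1 risen with a pseudocount of 0.1, and 3 risen with sample quality weights and with every listed transcript; the cause was not tested. Leaving out 1 library gave 13 to 22 risen other pathway genes in LPS+XJDHT against Control (13 without Control replicate 2), and in LPS+XJDHT against LPS 0 to 3 risen genes of all tested (3 without LPS replicate 2, 1 without LPS replicate 3 or 4 or LPS+XJDHT replicate 2 or 3) and a members' median from -0.1 to 0.05. At this size a change of a low or uneven member such as Vldlr, Slc27a1, Acacb or Cpt1a was not detectable unless large. No paired analysis was possible because the replicate numbers 1 to 4 only name the mice within a group, and nothing in the labels ties equal numbers across groups to a pair.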
